A study of Mus musculus with 289 samples.

Results

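Single astrocytes of the adult mouse cortex that carried guide RNAs (gRNAs) against both Sox9 and Trps1 were set against astrocytes with a control gRNA, 21 days after virus injection, within the second sequencing batch. The comparison holds 15 of the 289 samples of the series, 8 cells labelled g-Sox9+Trps1 (dual gRNA) and 7 cells labelled g-Control. All came from the brain of transgenic mice that express Cas9, the nuclease that cuts DNA where a gRNA leads it, and that received a lentivirus named Mok-LV in the labels and built to act in astrocytes. Each cell was drawn into an electrophysiology pipette and made into a Smart-seq2 library, a full-length method without molecular identifiers. Not given in the sources used here are the strain, sex and exact age of the mice, the promoter that drives Cas9 and the animal each cell came from. Each group therefore counts as 1 sample, and every difference describes these libraries with no replicate check. Also used, for reference, were 8 control gRNA cells of day 7 and 1 in-slice control (a library labelled as holding no cell, day 7) of the same batch, with 13 dual gRNA and 15 control gRNA cells of day 21 from the fourth batch.

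SOX9 is a transcription factor with an HMG-box DNA-binding domain that drives gliogenesis and cartilage formation and stays on in most astrocytes of the adult mouse brain. TRPS1 is a GATA-type zinc finger protein that mainly represses transcription and is known best from cartilage and bone. Cas9 leaves small insertions or deletions at the cut site, which can destroy the protein while the mRNA is still made, so a gene's read count need not report on the edit. Mfge8, Hes1 and Klf6, followed here beside the targets, encode a bridge between dying cells and phagocytes, a repressor switched on by Notch signalling, and a zinc finger factor of injury responses.

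Reads in genes ran from 1368755 to 4656612 per dual gRNA cell (median 2316954) and from 1470970 to 2701806 per control gRNA cell (median 2244074). Genes with a read numbered 2018 to 7131 per dual gRNA cell (median 3429) and 1302 to 5631 per control gRNA cell (median 3974). Spike-in RNA took 3.99% to 58.3% of the reads of dual gRNA cells and 6.95% to 55.5% of those of control gRNA cells, and it passed 40% in dual gRNA cell 5 and in control gRNA cells 2 and 3. CT010467.1, the gene with most reads in each of these cells, took 8.20% to 49.6% of gene reads in dual gRNA cells and 12.5% to 46.1% in control gRNA cells. Of the 40 astrocyte identity genes, all were read at 5 CPM (reads per 1e+06 gene reads) or more in at least 1 pool. Their summed level was 29984 to 77526 CPM per dual gRNA cell, 6655 to 77033 CPM per control gRNA cell and 17250 CPM in the in-slice control, and control gRNA cells 2, 6 and 7 stood below the in-slice control. Markers of microglia and macrophages were read in both groups, 17 of 19 at 5 CPM or more, with sums of 10.8 to 34321 CPM per dual gRNA cell, 372 to 22963 CPM per control gRNA cell and 31767 CPM in the in-slice control. Neuron markers (11 of 12) summed to 46.0 to 7808 CPM per dual gRNA cell and 45.0 to 12305 CPM per control gRNA cell, the highest of them control gRNA cell 7. Endothelial genes were close to 0, with none of the 5 in the table at 5 CPM. Xist, the RNA of X inactivation, had no read in either pool, and Y-linked genes were read in cells of both.

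Reads of the targeted genes came first as a check of the labels. Sox9 (ENSMUSG00000000567, GRCm38 chromosome 11, 112782224 to 112787760, plus strand) was not lower in the dual gRNA pool, which held 905 CPM (892 to 918) against 491 CPM (480 to 502) in the control gRNA pool. All such intervals are exact Poisson 95% intervals and cover counting error only. Among dual gRNA cells Sox9 stood at 0 CPM in the lowest, 162 CPM at the median and 3697 CPM in the highest, with a read in 7 of 8 cells. Among control gRNA cells the lowest held 0 CPM, the median was 510 CPM and the highest held 1544 CPM, with a read in 5 of 7 cells. The groups overlapped except that dual gRNA cells 7 and 3 lay above every control gRNA cell, and the order of their medians was opposite to that of their pools, since dual gRNA cells 7, 3 and 2 carried 3697, 2170 and 1120 CPM of Sox9. The in-slice control had no read of Sox9. By the size rule Sox9 was not called, but it was called higher without control gRNA cell 1, 3, 4 or 5 and without the cells rich in spike-in reads. Reads of the 2 guide entries in the count table, both for Sox9, were found in 4 of 8 dual gRNA cells and in 0 control gRNA cells, and the table has no entry for a Trps1 guide.

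Trps1 (ENSMUSG00000038679, chromosome 15, 50654752 to 50890463, minus strand) was lower in the dual gRNA pool, at 19.4 CPM (17.5 to 21.3) against 107 CPM (102 to 112) in the control gRNA pool. Nearly all dual gRNA reads of Trps1 came from cell 4, at 117 CPM, while 2 other cells held 0.80 and 0.47 CPM and 5 had none. Control gRNA cells 5, 1, 4 and 6 held 326, 322, 74.4 and 4.01 CPM of Trps1, and the remaining 3 had none. Without the highest cell of each pool the levels were 0.17 CPM in dual gRNA cells and 62.8 CPM in control gRNA cells, a log2 ratio of -3.71. The share of cells with a Trps1 read was 37.5% (8.52% to 75.5%) in dual gRNA cells and 57.1% (18.4% to 90.1%) in control gRNA cells, exact Clopper-Pearson 95% intervals that overlap. Because these shares differ by less than 20 percentage points, Trps1 did not pass the size rule set out below. It was called lower in 6 of the 15 comparisons that left out 1 cell, without the cells rich in spike-in reads and when cells at 10 CPM were counted in place of cells with a read. Trps1 was at 174 CPM in control gRNA cells of day 7, with reads in 5 of 8.

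**Figure D1:**
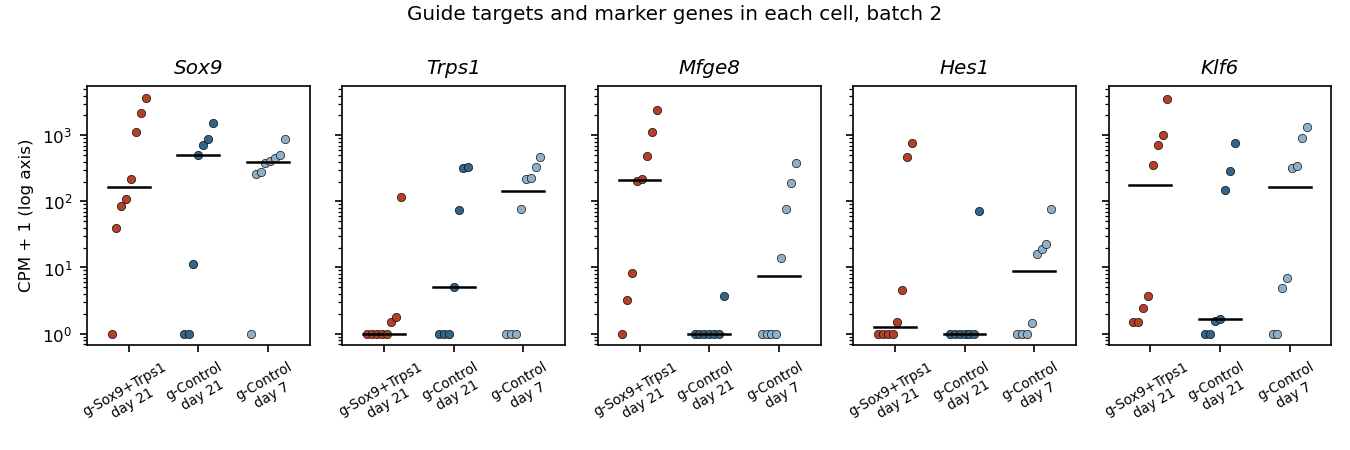
CPM + 1 on a log axis for Sox9, Trps1, Mfge8, Hes1 and Klf6 in each cell of batch 2 (points), with the median of each group as a bar, for dual gRNA cells of day 21, control gRNA cells of day 21 and control gRNA cells of day 7. Mfge8 was read in 7 of 8 dual gRNA cells and 1 of 7 control gRNA cells of day 21, whereas Sox9 overlapped between groups and Trps1 passed 10 CPM in a single dual gRNA cell.

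Mfge8 (ENSMUSG00000030605, chromosome 7, 79133768 to 79149060, minus strand), a secreted protein that links phosphatidylserine on dying cells to integrins of phagocytes, was the clearest of the 3 followed genes. The dual gRNA pool held 462 CPM (453 to 471) and the control gRNA pool 0.40 CPM (0.15 to 0.87). Among dual gRNA cells Mfge8 ran from 0 CPM through a median of 211 CPM to 2404 CPM, with a read in 7 of 8 cells and 10 CPM or more in 5. Among control gRNA cells it was 0 CPM in 6 and 2.67 CPM in cell 6. The groups still touched, since dual gRNA cell 1 had no Mfge8 read and cell 5 held 2.2 CPM. Without the highest cells the pools held 257 CPM (dual gRNA) and 0 CPM (control gRNA). Control gRNA cells of day 7 held 92.6 CPM of Mfge8 with reads in 4 of 8, so its near absence at day 21 was not shared by the earlier control cells. The call by that rule held whichever cell was left out.

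Klf6 (ENSMUSG00000000078, chromosome 13, 5861482 to 5870394, plus strand) was higher in the dual gRNA pool, at 1081 CPM (1067 to 1095) against 199.8 CPM (193 to 207) in the control gRNA pool. Dual gRNA cells fell into 4 that held 3581, 1006, 713 and 353 CPM of Klf6 and 4 below 3 CPM. Control gRNA cells 5, 6 and 4 held 771, 288 and 148 CPM of Klf6, and the others less than 1 CPM. The 2 groups overlapped over most of their range. Klf6 lost the rule's call when control gRNA cell 3 or 7 was left out, when cells were thinned to 500000 reads and when cells at 10 CPM were counted. With each cell left out in turn its log2 ratio stayed at 1.43 or more. Without control gRNA cell 3 or 7 the call ended on the share of cells with a read. Control gRNA cells of day 7 held 405 CPM of Klf6.

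Hes1 (ENSMUSG00000022528, chromosome 16, 30064384 to 30067796, plus strand) stood at 136 CPM (131 to 141) in the dual gRNA pool and 12 CPM (10.3 to 13.9) in the control gRNA pool. Dual gRNA cells 3 and 7 held 764 and 471 CPM of Hes1, 2 more held 3.52 and 0.51 CPM, and 4 had no read. In control gRNA cells Hes1 was read in cell 5 alone, at 71.3 CPM. The in-slice control held 15.7 CPM of Hes1, above the level of the control gRNA pool. Without dual gRNA cell 3 or 7, at 500000 reads per cell or with cells at 10 CPM counted, Hes1 no longer passed the rule, and with cells left out in turn its log2 ratio reached as low as 0.21.

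The promoter windows of Mfge8 and Klf6 are shown because these genes were followed beside the targets. The proteins targeted bind DNA at SOX and GATA sites. Each window runs from 250 bases before to 50 after the start of the RefSeq transcript (GRCm38.p6), in the direction of transcription, chr7:79149011-79149310 on the minus strand for Mfge8 and chr13:5861239-5861538 on the plus strand for Klf6. Capitals mark every match, on either strand, to 5 kinds of motif. The SOX core was searched with the letters AACAAT and in its other form ACAAAG. The core of GATA factors was searched with the letters AGATAA and in its other form TGATAA. The half-site of cyclic AMP response factors was searched as TGACG, the CCAAT box by its name's letters and the GC box as GGGCGG. No SOX or GATA core occurs in either window, which says only that these letters are not there. Mfge8 has 4 GC boxes between 61 and 12 bases before the start, and Klf6 has 4 CCAAT boxes and 1 GC box. Sox9, Trps1 and Hes1 had no entry in the promoter table used.
Mfge8: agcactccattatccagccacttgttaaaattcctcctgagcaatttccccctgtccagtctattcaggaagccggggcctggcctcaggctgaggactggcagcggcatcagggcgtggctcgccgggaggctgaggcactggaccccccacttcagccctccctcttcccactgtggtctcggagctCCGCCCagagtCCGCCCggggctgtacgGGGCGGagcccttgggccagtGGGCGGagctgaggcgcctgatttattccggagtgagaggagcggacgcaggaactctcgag
Klf6: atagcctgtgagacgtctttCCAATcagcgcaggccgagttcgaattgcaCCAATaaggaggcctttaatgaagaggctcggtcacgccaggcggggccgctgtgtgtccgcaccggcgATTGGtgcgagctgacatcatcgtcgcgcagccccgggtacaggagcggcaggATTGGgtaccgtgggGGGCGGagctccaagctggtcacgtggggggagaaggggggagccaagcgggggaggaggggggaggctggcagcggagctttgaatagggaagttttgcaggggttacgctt

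Over all 32851 windows of the table, 27% held a SOX core, 18.6% a GATA core, 20.8% the TGACG half-site, 37.4% a CCAAT box and 35.7% a GC box. A SOX core was in 17.3% of the windows of genes higher in dual gRNA cells by the size rule, in 16.8% of those of lower genes and in 18.4% of those of all genes at 20 CPM or more. The shares for a GATA core were 11.3%, 9.37% and 10.6%. Windows of higher and of lower genes were thus close to each other and to the background in both motifs, as a description of sequence with no test.

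Across all genes a size rule was used in place of a test. The rule asked for a pooled level of at least 20 CPM on the higher side and for reads in 40% or more of the cells there. The groups also had to differ by at least 20 percentage points in the share of cells with a read. Last, the log2 ratio on CPM + 5 had to reach 1 with the highest cell for that gene taken out of each pool. Of 6792 genes at 20 CPM or more, 471 were higher in dual gRNA cells (6.93%) and 509 lower (7.49%). With all cells kept and the log2 ratio of 1 as the single criterion, 2145 genes were higher (31.6%) and 2894 lower (42.6%). With the other criteria kept but the highest cells left in, 446 were higher and 561 lower. In no gene did every cell of one group lie above every cell of the other (0% higher and 0% lower). Of the 471 higher genes, 213 were read in only 4 of 8 dual gRNA cells and 18 in all 8, and 2 reached 10 CPM in all 8. Of the 509 lower genes, 211 were read in 3 of 7 control gRNA cells and 15 in all 7. Without the 3 cells whose spike-in share passed 40%, 471 genes were higher, of which 309 were among the first 471, and 1136 were lower. In these smaller pools fewer cells need a read to meet the 40% share. Requiring 10 CPM in place of a read gave 195 higher and 463 lower genes.

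The genes ranked highest were Lrpap1, Nr4a1, Cdc16, Nupr1, Dnajb1, Cdc23, Slc39a12, H13, Mfge8, Wbp2, Aifm3 and Unc93b1, with log2 ratios without the highest cells from 6.92 down to 5.54. Slc39a12, a zinc transporter of astrocytes, was at 795 CPM in dual gRNA cells (7 of 8 with a read) against 3.68 CPM in control gRNA cells (3 of 7). Dual gRNA cells held 0 CPM of Slc39a12 in the lowest, 470 CPM at the median and 2031 CPM in the highest, while no control gRNA cell passed 14.7 CPM. Only 2 dual gRNA cells lay within the control range. Nupr1, a small chromatin protein induced by stress, stood at 1038 CPM (1024 to 1052) in dual gRNA cells and 0.067 CPM (0.0017 to 0.37) in control gRNA cells, the second from 1 read. It was at 10 CPM or more in 5 of 8 dual gRNA cells, among them cell 3 at 5430 CPM, and at 299 CPM in control gRNA cells of day 7. Lrpap1, a chaperone of lipoprotein receptors, held 718 CPM in dual gRNA cells and 138 CPM in control gRNA cells, almost all of the control reads from cell 5.

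Dnajb1, a heat shock co-chaperone, reached 3880 and 3089 CPM in dual gRNA cells 3 and 7, and 258 CPM in the highest control gRNA cell. Cdc16 and Cdc23, subunits of the anaphase-promoting complex, stood at 615 and 697 CPM in dual gRNA cells against 26.7 and 35.8 CPM in control gRNA cells, and were read in 4 of 8 dual gRNA cells each. Each lost the rule's call in 9 of 15 comparisons with 1 cell left out, where the call ended on the share of cells with a read. Their log2 ratios stayed at 3.60 or more for Cdc16 and 5.10 or more for Cdc23. Wbp2, a transcriptional coactivator that binds WW domains, was read in all 8 dual gRNA cells (503 CPM) and in 3 of 7 control gRNA cells (84.7 CPM), but also stood at 393 CPM in the in-slice control. Unc93b1, a chaperone that escorts Toll-like receptors into endosomes, was at 423 CPM in dual gRNA cells and 21.0 CPM in control gRNA cells. H13, a signal peptide peptidase, and Aifm3, a mitochondrial flavoprotein, had log2 ratios of 5.89 and 5.66.

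The genes ranked lowest were Ighm, Rack1, Sf3b2, Sirt7, Slc27a1, C4b, Ilkap, Gpatch8, Dynll1, Akap9, Cmtm5 and Arl6ip4, with log2 ratios from -6.44 to -4.99. Ighm, the immunoglobulin mu heavy chain, was at 85.4 CPM in dual gRNA cells, of which cell 4 held 516 CPM and no other more than 2.92 CPM. Control gRNA cells held 707 CPM of Ighm, with a median of 470 CPM and a highest cell of 2743 CPM. Rack1, a scaffold protein of the ribosome, was at 46.8 CPM in dual gRNA cells (3 of 8) and 646 CPM in control gRNA cells (6 of 7), with 2350 CPM in the in-slice control. Slc27a1, a fatty acid transporter, was at 22.4 CPM in dual gRNA cells and 336 CPM in control gRNA cells. C4b, the complement component, was at 46.8 CPM in dual gRNA cells and 269 CPM in control gRNA cells, and reads of its near copy C4a cannot be told apart by symbol alone. Ilkap, a phosphatase of integrin-linked kinase signalling, had the lowest dual gRNA level of the 12, at 2.32 CPM from 1 cell against 231 CPM in control gRNA cells. All 12 kept the call whichever cell was left out, but their ranking already used the ratio without the highest cells. Their levels in control gRNA cells of day 7 lay between 35.6 CPM for Ilkap and 390 CPM for Ighm. In the fourth batch, described below, only Slc27a1 and Cmtm5 of the 12 were called lower. Without the highest cells, log2 ratios there were above 0 for Ighm (0.55), Rack1 (0.23), Sirt7 (0.81), Ilkap (1.94) and Dynll1 (0.43). Sf3b2, C4b, Gpatch8, Akap9 and Arl6ip4 were below 0 there but not called.

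**Figure D2:**
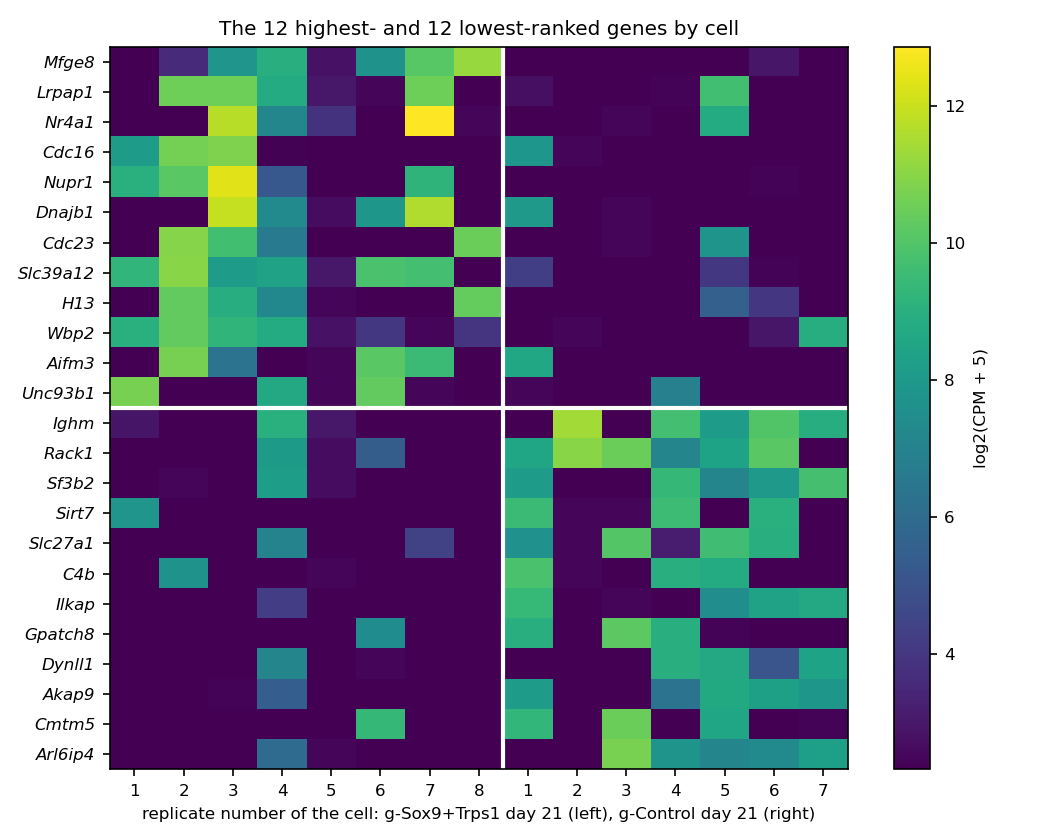
log2(CPM + 5) of the 12 genes ranked highest and the 12 ranked lowest by the size rule (rows) in each cell (columns), dual gRNA cells on the left and control gRNA cells on the right. No row separates the groups fully, and dual gRNA cell 4, with 7131 genes read, holds reads of 8 of the 12 lower genes.

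Immediate early genes, which are transcribed within minutes of a stimulus, were the list with the largest share of higher genes among the lists of 10 or more tested genes. Of 23 measured at 5 CPM or more, 6 were higher in dual gRNA cells and 0 lower, against 5.13% higher and 5.54% lower over all 9185 genes at that level. A call needs 20 CPM, and over the 6792 genes that reach it the shares were 6.93% higher and 7.49% lower. These shares are the reference for the counts of every list below. The 6 were Nr4a1, Gadd45g, Fosb, Dusp6, Egr1 and Gadd45b, and the list's median log2 ratio without the highest cells was 0.33, against 0 over all genes. With all cells kept the medians were 0.55 for the list and -0.37 over all genes. Nr4a1, an orphan nuclear receptor, was at 1112 CPM (1098 to 1126) in dual gRNA cells and 75.3 CPM (70.9 to 79.8) in control gRNA cells. Dual gRNA cells 7, 3 and 4 held 7460, 3377 and 138 CPM of Nr4a1 and the others less than 10 CPM, and control gRNA cell 5 held 447 CPM with the others under 1 CPM. Gadd45g, a stress sensor of the growth arrest family, was at 1997 CPM in dual gRNA cells and 393 CPM in control gRNA cells. It was read in all 8 dual gRNA cells, with a median of 889 CPM, and in 5 of 7 control gRNA cells, with a median of 17 CPM for Gadd45g.

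Fos itself stood at 4714 CPM in dual gRNA cells and 2318 CPM in control gRNA cells and was read in every cell of both. Summed over the list, dual gRNA cells ran from 4752 to 49631 CPM with a median of 7418 CPM, and control gRNA cells from 529 to 17137 CPM with a median of 6442 CPM. Dual gRNA cells 3 and 7, at 49631 and 25229 CPM, were the 2 cells that held nearly all Hes1 reads and the highest levels of Nr4a1, Dnajb1 and Sox9. The summed levels of the other 6 dual gRNA cells lay within the control range. The count of higher immediate early genes was 4 without dual gRNA cell 4 and 3 without control gRNA cell 7, and 3 to 8 over all cells left out in turn. With cells at 10 CPM counted the list had 4 higher and 2 lower genes. Nr4a1 and Fosb were called lower in the fourth batch described below. In the in-slice control the list summed to 2884 CPM.

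The promoter window of Nr4a1 (RefSeq, GRCm38.p6, chr15:101266596-101266895, plus strand) is shown as that of the immediate early gene with the largest ratio. It holds 4 TGACG half-sites, 233, 213, 69 and 40 bases before the start, all on the opposite strand and marked in capitals with 3 GC boxes. The TGACG half-site was in 32.8% of the windows of higher genes, 35.6% of those of lower genes and 32.1% of those of all genes at 20 CPM or more. Fosb has 1 such half-site, and Gadd45g and Dusp6 have none.
Nr4a1: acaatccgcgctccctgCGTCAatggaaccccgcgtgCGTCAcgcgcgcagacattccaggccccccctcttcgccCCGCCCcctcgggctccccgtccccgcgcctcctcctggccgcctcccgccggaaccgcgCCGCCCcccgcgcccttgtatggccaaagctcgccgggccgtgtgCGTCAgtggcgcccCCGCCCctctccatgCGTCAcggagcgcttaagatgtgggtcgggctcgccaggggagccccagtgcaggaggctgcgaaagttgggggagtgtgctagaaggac

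Of 20 genes for phagocytosis, 4 were higher in dual gRNA cells and 1 was lower, against 5.13% higher and 5.54% lower over all genes. Beside Mfge8 these were Gas6, the ligand of TAM receptor kinases, at 477 CPM in dual gRNA cells and 0 CPM in control gRNA cells, at least 2372-fold higher when the control pool is set to 3 counts. The 4 dual gRNA cells with a Gas6 read included only 2 at 10 CPM or more, and the dual gRNA pool held 141 CPM without its highest cell. Gas6 lost its call without dual gRNA cell 2 or 3, where its log2 ratio reached 0.083. Itgb5, an integrin subunit that binds Mfge8, was at 171 CPM in dual gRNA cells and 41.8 CPM in control gRNA cells, but lost the call in 9 of 15 comparisons with 1 cell left out and was lower by the rule in the fourth batch. Cd47, the signal that restrains phagocytes, was at 505 CPM in dual gRNA cells and 81.3 CPM in control gRNA cells. The receptor kinase Mertk was lower, at 45.3 CPM in dual gRNA cells and 301 CPM in control gRNA cells, and its log2 ratio turned to 0.81 without control gRNA cell 1 or 3. Without dual gRNA cell 2 or 3, 2 of the 20 genes were higher, and with all cells thinned to 500000 reads it was 1. The list's median log2 ratio without the highest cells was -0.08. Microglia are phagocytes, and the sums of their markers stand above; their part in the result was not tested.

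Astrocyte genes were not lower as a group. Of 40 identity genes 3 were higher (Slc39a12, F3 and Acsbg1) and 3 lower (Acsl3, Dio2 and Gjb6), and the pools summed to 55501 CPM in dual gRNA cells and 33056 CPM in control gRNA cells. Acsbg1, an acyl-CoA synthetase, was read at 10 CPM or more in all 8 dual gRNA cells and in 4 of 7 control gRNA cells, with 1048 CPM in dual gRNA cells and 679 CPM in control gRNA cells. Gjb6, the gap junction protein connexin 30, was at 193 CPM in dual gRNA cells (3 of 8) and 507 CPM in control gRNA cells (6 of 7). The glutamate transporter Slc1a3 and apolipoprotein Apoe were read in every cell of both groups. Apoe stood at 16196 CPM in dual gRNA cells and 8654 CPM in control gRNA cells, and Slc1a3 at 2352 CPM in dual gRNA cells and 1133 CPM in control gRNA cells. In these pooled values, fewer cells with a transcript and less RNA per cell cannot be told apart.

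Among 17 transcription factors of astrocytes, Nfix and Tcf7l2 were higher and Lhx2 was lower. Tcf7l2, a mediator of Wnt signalling, lost its call in 9 of 15 comparisons with 1 cell left out. Nfix, a nuclear factor I protein, was at 153 CPM in dual gRNA cells (6 of 8) and 18.9 CPM in control gRNA cells (3 of 7), with 97.4 CPM in the in-slice control. Lhx2, a LIM homeobox factor, had no read in any of 8 dual gRNA cells and stood at 67.9 CPM in control gRNA cells, at least 469-fold lower in dual gRNA cells with their pool set to 3 counts. Lhx2 was read in 3 of 7 control gRNA cells, and the call ended when any of these was left out. Reactive astrocyte genes split, with Tagln2 and Cd14 higher and C4b, S100a6 and Gfap lower among 21. Gfap, the intermediate filament of reactive astrocytes, was at 481 CPM in dual gRNA cells and 1116 CPM in control gRNA cells, with medians of 6.41 CPM in dual gRNA cells and 521 CPM in control gRNA cells, and lost its call in 5 of 15 comparisons with 1 cell left out. The in-slice control held 712 CPM of Tagln2 and 557 CPM of Cd14, above both pools. S100a6, a calcium-binding protein, had no read in dual gRNA cells and 122 CPM in control gRNA cells.

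Of 14 Notch pathway genes Hes1 was higher and Adam10, the protease that cuts Notch receptors, lower, at 20.2 CPM in dual gRNA cells and 199 CPM in control gRNA cells. The in-slice control held 270 CPM of Adam10, above both pools. Hey1, another Notch target, was at 76.6 CPM in dual gRNA cells and 0.067 CPM in control gRNA cells but was read in 3 of 8 dual gRNA cells and did not pass the rule. Hes5 had no read in either pool. Of 8 measured KLF factors, Klf6 was higher and Klf10 and Klf13 were lower. Klf10, induced by TGF-beta, was at 0.34 CPM in dual gRNA cells and 514 CPM in control gRNA cells, but at 5.38 CPM in the control gRNA cells without their highest. The in-slice control held 908 CPM of Klf10, above both pools.

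Of 35 genes of fatty acid and glycerolipid metabolism 7 were lower in dual gRNA cells and 2 higher, against 5.54% lower and 5.13% higher over all genes. Lower were Slc27a1, Dgat1, which makes triglyceride (53.3 CPM in dual gRNA cells and 208 CPM in control gRNA cells), Acsl3, which activates fatty acids (91.3 CPM in dual gRNA cells and 159 CPM in control gRNA cells), Agpat5, Gpam, Cpt1a and Pnpla2. Gpam, Cpt1a and Pnpla2 had no read in dual gRNA cells, and each was read in 3 or 4 of 7 control gRNA cells. Acadvl, an enzyme of beta-oxidation, was higher, at 141 CPM in dual gRNA cells and 0 CPM in control gRNA cells, and so was Acsbg1. In the fourth batch, described below, Dgat1 was called higher, at 112 CPM in dual gRNA cells and 3.41 CPM in control gRNA cells. Acsbg1 was called lower there, at 78.4 CPM in dual gRNA cells and 255 CPM in control gRNA cells. Slc27a1, Agpat5 and Gpam were lower there too. Without control gRNA cell 1 the list turned to 4 higher and 3 lower, and without control gRNA cell 6 it had 1 higher and 4 lower.

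Of 74 subunits of oxidative phosphorylation 11 were lower and 3 higher, against 5.54% lower and 5.13% higher over all genes. The list's median log2 ratio without the highest cells was -0.44, against 0 over all genes. With all cells kept the median was -0.52 for the list and -0.37 over all genes, so by this measure the list lay nearer to all genes. Cox7c, a cytochrome oxidase subunit, was at 28.9 CPM in dual gRNA cells and 152 CPM in control gRNA cells, and Ndufa3, of complex I, at 71.9 CPM in dual gRNA cells and 239 CPM in control gRNA cells. The in-slice control held 227 CPM of Cox7c, above both pools, and 93.5 CPM of Ndufa3. Control gRNA cell 7 held 42585 CPM of the list, against 7540 to 17947 CPM in dual gRNA cells and 8467 to 18716 CPM in the other 6 control gRNA cells. The count of lower subunits was 6 without it, 4 (with 4 higher) without dual gRNA cell 2 and 17 without dual gRNA cell 4, and that of higher subunits was 8 without control gRNA cell 5 or 7. Of 37 proteasome subunits 8 were lower, among them Psmd2 (13.2 CPM in dual gRNA cells and 186 CPM in control gRNA cells), and 3 higher, Psma1, Psmb1 and Psmb9. Psma1 was at 278 CPM in dual gRNA cells and 29.1 CPM in control gRNA cells, the control reads from 1 cell, with 686 CPM in the in-slice control. Over all cells left out in turn the proteasome list had 6 to 14 lower and 3 to 7 higher subunits. The count of lower ones was 14 without control gRNA cell 2 and 13 without dual gRNA cell 4. The list summed to 9683 CPM in the in-slice control, above the dual gRNA pool (4992 CPM) and the control gRNA pool (5988 CPM). Mitochondrial transcripts took 6.43% of gene reads in the dual gRNA pool and 6.0% in the control gRNA pool.

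**Figure D3:**
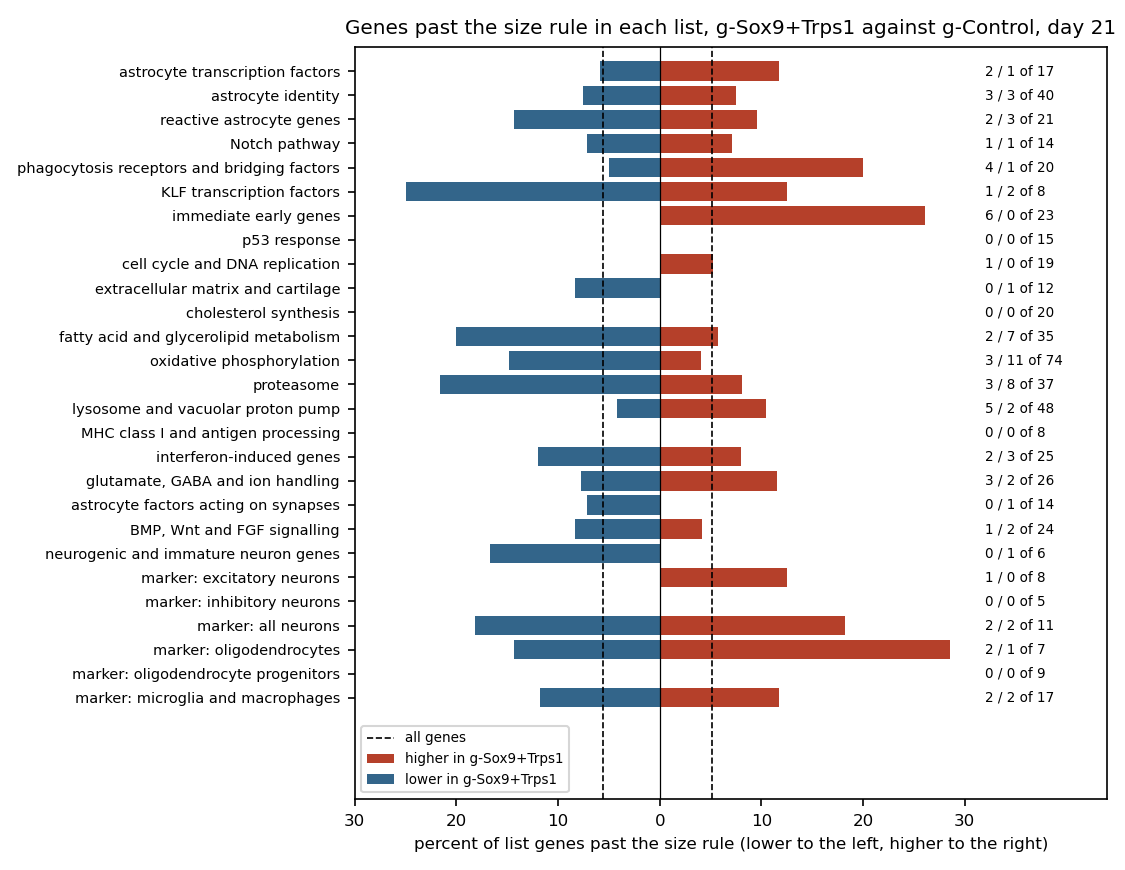
Percent of the measured genes of each list that were higher (right) or lower (left) in dual gRNA cells by the size rule, with the shares over all 9185 genes at 5 CPM or more as dashed lines and the counts at the right margin as higher / lower of measured. Immediate early genes lean to the right with 6 of 23, and oxidative phosphorylation and proteasome subunits to the left with 11 of 74 and 8 of 37.

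Several lists held few or no called genes. Cholesterol synthesis had none of 20, the p53 response none of 15 and MHC class I genes none of 8. Cdkn1a, the p53 target that arrests the cell cycle, was at 435 CPM in dual gRNA cells and 26.5 CPM in control gRNA cells and was read in 4 cells of each group. The p53 list summed to 1688 CPM in dual gRNA cells and 355 CPM in control gRNA cells, with 7589 CPM in dual gRNA cell 3, and the cell cycle list to 1875 CPM in dual gRNA cells and 292 CPM in control gRNA cells, with 12249 CPM in dual gRNA cell 3. Pcna, the replication clamp, was the one gene of 19 in the cell cycle list to pass, at 326 CPM in dual gRNA cells (6 of 8) and 14.6 CPM in control gRNA cells (2 of 7). The lysosome list had 5 higher and 2 lower of 48, with 2 higher without dual gRNA cell 1 or 7 and 0 higher without the 3 cells rich in spike-in reads. Interferon-induced genes had 2 higher and 3 lower of 25, extracellular matrix genes 0 and 1 of 12, genes of glutamate, GABA and ion handling 3 and 2 of 26, synapse factors 0 and 1 of 14, BMP, Wnt and FGF signalling 1 and 2 of 24, and neurogenic genes 0 and 1 of 6.

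Markers of other cell types were called both ways. Among 17 microglial genes P2ry12, a purinergic receptor, and Lyz2, lysozyme, were higher, and Ptprc and Aif1 lower. P2ry12 was at 108 CPM in dual gRNA cells and 1.21 CPM in control gRNA cells, and Ptprc, the leukocyte phosphatase CD45, at 34.9 CPM in dual gRNA cells and 206 CPM in control gRNA cells. The pools summed to 14568 CPM of microglial markers in dual gRNA cells and 9558 CPM in control gRNA cells. The list's median log2 ratio without the highest cells was 1.02, against 0 over all genes, and with all cells 0.84, against -0.37. Aif1 lost its call in 9 of 15 comparisons with 1 cell left out. Oligodendrocyte markers had 2 higher and 1 lower of 7. Neuron markers had 2 of 11 each way, excitatory neuron markers 1 higher of 8, and inhibitory neuron and oligodendrocyte progenitor markers none of 5 and 9. Hbb-bs, a beta globin chain whose reads can be shared with Hbb-bt, was higher at 42.6 CPM in dual gRNA cells against 0 CPM in control gRNA cells, 1 of 3 erythroid genes measured. Of pericyte and ependymal markers 1 each reached 5 CPM, and neither was called. The part of these transcripts in the differences above was not tested.

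**Figure D4:**
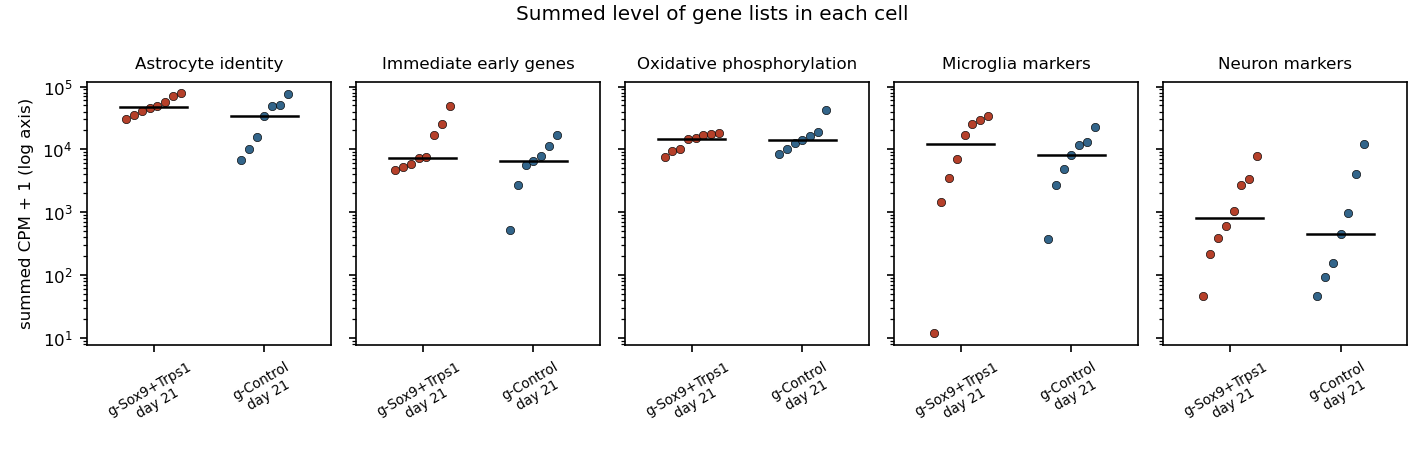
Summed CPM + 1 of 5 gene lists on a log axis in each cell (points) with the median of each group as a bar, dual gRNA cells on the left and control gRNA cells on the right of each panel. Groups overlap in every list, the 2 highest immediate early sums are dual gRNA cells 3 and 7, and microglial markers span more than 3 orders of magnitude among dual gRNA cells.

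The control gRNA cells of day 7 were used as another baseline, though day then differs as well as the gRNA. Against them 224 of 7050 genes at 20 CPM or more were higher in dual gRNA cells of day 21 (3.18%) and 1593 lower (22.6%). Control gRNA cells of day 21 set against those of day 7 had 199 higher (2.66%) and 1463 lower (19.6%) of 7477 genes. Between these control groups 1 gene (0.0134%) was higher and 3 genes (0.0401%) were lower at day 21 with no overlap of cells. Both day 21 groups thus held many more lower than higher genes against the same day 7 cells, which they share as baseline. Genes with a read numbered 2342 to 9024 per day 7 cell, with a median of 4244, above the medians of both day 21 groups. Spike-in RNA took 3.23% to 36.0% of the reads of day 7 cells. The part of these library differences in the counts was not tested. Gadd45g was at 1798 CPM and Nr4a1 at 487 CPM in control gRNA cells of day 7, each read in 8 of 8. The level of Nr4a1 in dual gRNA cells was 1112 CPM, with reads in 5 of 8, and that of Gadd45g 1997 CPM. Without the highest cells the log2 ratios against day 7 were 0.19 for Nr4a1 and -0.58 for Gadd45g, and neither passed the rule.

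The same labels recur in the fourth batch, with no cells or controls in common. There 225 of 6733 genes were higher in dual gRNA cells (3.34%) and 665 lower (9.88%). Of the 471 genes higher in the second batch, 403 reached 20 CPM in the fourth, where 17 were higher (4.22%) and 47 lower (11.7%). Of the 509 lower genes 397 reached 20 CPM, where 52 were lower (13.1%) and 20 higher (5.04%). These shares stand beside the 3.34% higher and 9.88% lower over all 6733 genes. With genes below 20 CPM in the fourth batch counted too, the shared genes are 3.61% of all higher genes of the second batch. They are 7.56% of the higher genes of the fourth, and 10.2% and 7.82% of the lower genes of the second and the fourth. Mfge8 went the other way in the fourth batch, at 4.42 CPM in dual gRNA cells and 181 CPM in control gRNA cells, and Slc39a12 as well, at 9.26 CPM in dual gRNA cells and 122 CPM in control gRNA cells. Hes1 was at 13.4 CPM in dual gRNA cells and 52.5 CPM in control gRNA cells there, and Klf6 at 115 CPM in dual gRNA cells and 68.7 CPM in control gRNA cells, neither past the rule. Without the highest cell of each pool the log2 ratio of Hes1 there was 0.63. Sox9 was at 133 CPM in dual gRNA cells and 177 CPM in control gRNA cells, and lower there by the rule. Trps1 was at 16.7 CPM in dual gRNA cells and 3.35 CPM in control gRNA cells there, opposite in order to the second batch and not past the rule.

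Lower by the rule in both batches were Slc27a1 (0.12 CPM in dual gRNA cells and 384 CPM in control gRNA cells of the fourth batch), Lhx2 (0.060 CPM in dual gRNA cells and 26.3 CPM in control gRNA cells), Gfap (209.8 CPM in dual gRNA cells and 540 CPM in control gRNA cells), Cmtm5, Dio2, Ncan, Agpat5, Psmd12, Gbp3 and Tubb3 among the named genes. Ncan encodes neurocan, a proteoglycan of the brain matrix, and Dio2 the deiodinase that activates thyroid hormone in astrocytes. P2ry12 and Hbb-bs were the 2 named genes higher in both, and they mark microglia and red cells. In the second batch P2ry12 lost its call without dual gRNA cell 1 or 4, and Hbb-bs without dual gRNA cell 6 or 8. With cells left out in turn, log2 ratios there reached as low as 0.039 for P2ry12 and 0.51 for Hbb-bs. P2ry12 stood at 304 CPM in dual gRNA cells and 77.6 CPM in control gRNA cells of the fourth batch.

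**Figure D5:**
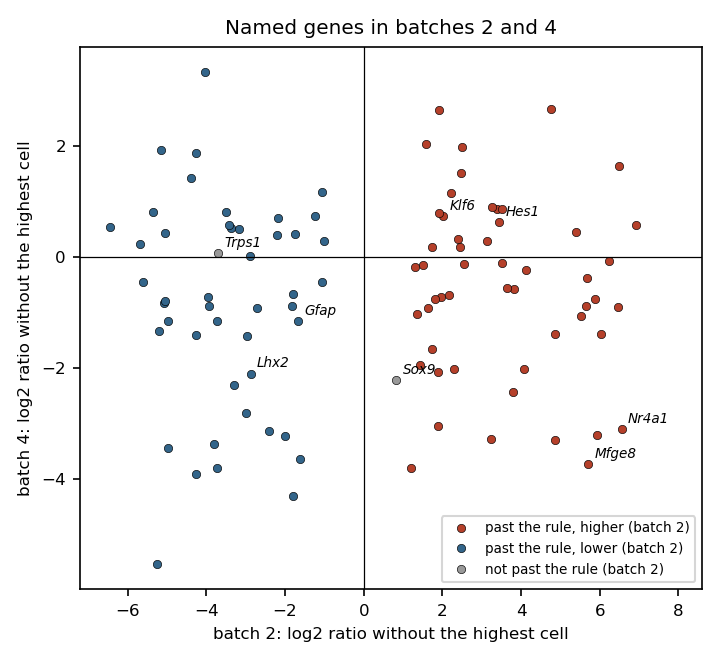
log2 ratio of dual gRNA over control gRNA cells, on CPM + 5 without the highest cell of each pool, for the named genes in batch 2 (horizontal) and batch 4 (vertical), coloured by the call in batch 2. Genes higher in batch 2 lie on both sides of 0 in batch 4, with Mfge8 and Nr4a1 below it, and Lhx2 and Gfap are below 0 in both.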

How the data were processed

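Single-cell Smart-seq2 libraries were analysed from the gene count table of the second batch, with that of the fourth batch for comparison. The deposited values are whole read counts per gene and cell as the authors made them. The submitters' processing notes name STAR 2.6.0a, RSEM 1.3.0 and the builds GRCm38 and mm10 without saying which made these counts, and their strand setting, not given in the sources used here, is unknown. The 80 spike-in and 2 guide entries, of which the spike-in entries held 22.3% of all counts of the second batch, were left out of totals. Cells were taken to groups from the labels, and no 2 libraries were identical.

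Counts were summed over the cells of a group and divided by the summed gene reads (CPM). Intervals are exact Poisson for CPM and exact Clopper-Pearson for shares, at 95%, and cover counting error only, since reads without molecular identifiers are not independent molecules. A pool at 0 was set to 3 counts over the pool for fold bounds. Ratios used a pseudocount of 5 CPM. No test was run, because the labels name no animal and each group is 1 sample. Gene lists were counted over genes at 5 CPM or more in either pool. Named in the text were the targets, Mfge8, Hes1 and Klf6, the 12 genes ranked first each way without predicted, mitochondrial and ribosomal genes, up to 6 each way without overlap and up to 4 called genes each way per list; other list genes were named after their values were seen. The members and lists were chosen with earlier results of these data known. The scripts were tested on simulated data and ran in Python 3.11.15 with numpy 2.4.6, pandas 2.3.3, scipy 1.17.1 and matplotlib 3.10.9. Alternatives were another pseudocount, scaling and minimum, thinning to 500000 reads, each cell left out in turn and control gRNA cells of day 7 as baseline. Chosen after seeing the data were leaving out cells with over 40% spike-in reads, counting cells at 10 CPM, and leaving CT010467.1 and mitochondrial genes out of totals.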

Additional observations from a re-analysis of the deposited data

Results flagged for a closer look

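Dixon's criterion was applied to 26 groups of cells and met in 6. Its chance rate of about 1 in 20 groups holds for normally distributed values, which these skewed levels with many zeros are not. A group in which a single cell has reads meets it at any level, so the count of 6 is no measure of excess. Dual gRNA cell 4 had 7131 genes with a read, far above the other dual gRNA cells, and its Trps1 level, 6.93 on the log2(CPM + 5) scale, also stood apart from them. Among control gRNA cells, cell 6 stood apart for Mfge8 at 2.94 and cell 5 for Hes1 at 6.25, both on the log2(CPM + 5) scale, since no other control gRNA cell had a read of either gene. The summed level of immediate early genes in dual gRNA cell 3, 49631 CPM, and that of oxidative phosphorylation subunits in control gRNA cell 7, 42585 CPM, were each far above the rest of their group. Guide reads lie outside the gene counts used in the comparison. The entry gSox9_1 summed to 22 reads and gSox9_2 to 4 reads over dual gRNA cells, with 0 reads of either in control gRNA cells.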

How the results depend on the processing

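Higher and lower counts were 471 and 509, and with each cell left out in turn they ran from 346 to 674 higher and from 341 to 742 lower. The lowest higher count and the highest lower count came without dual gRNA cell 4, the highest higher count without dual gRNA cell 2 and the lowest lower count without control gRNA cell 5. Of the called genes, 196 of 471 higher, 143 of 509 lower and 48 of 98 named genes were called whichever cell was left out. A share difference of 40 points gave 188 higher and 218 lower. Control gRNA cells of day 7 as baseline gave 224 higher and 1593 lower, with 3 lower genes without overlap. Of the alternatives added after seeing the data, leaving out cells rich in spike-in reads gave 1136 lower and 6 lower without overlap, and counting cells at 10 CPM gave 195 higher. The other settings gave 330 to 505 higher and 416 to 561 lower genes.

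Signs turned for the following named genes. With each cell left out in turn the log2 ratio ran from -0.060 (without dual gRNA cell 2 or 3) to 3.30 for Gria2, from -3.63 to 0.81 (without control gRNA cell 1 or 3) for Mertk and from -4.86 to 0.25 (without control gRNA cell 1 or 5) for Sdha. Without cells rich in spike-in reads Mertk was at 0.82. Against control gRNA cells of day 7 it was -2.70 for Tcf7l2, -0.52 for F3, 0.087 for Gjb6, -0.58 for Gadd45g, -1.05 for Dusp6, 1.71 for Agpat5, 2.07 for Psmc4, -1.32 for Atp6v0a1, -0.18 for Laptm4a, -4.93 for Gaa, 0.51 for Atp6v1f, -2.75 for Irf1, -2.66 for Gabbr1, -1.70 for Meg3, 0.017 for Ptprc and 0.075 for Aif1. The cause was not tested. No paired analysis was possible because no result comes from a test and the labels tie no cells across groups.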
